A study of Homo sapiens with 28 samples.

Results

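The PDGF, VEGF and EGF family ligands described here are 10 secreted or shed growth factors: PDGFA, PDGFB, PDGFC, VEGFA, VEGFC, HBEGF, AREG, EREG, TGFA and NRG1. They were chosen by name, with earlier results of these data known, and were matched by symbol to 10 of the 60483 rows with an Ensembl identifier. All 10 passed the filter on low counts in both cell lines, which was applied over all groups of a line. RNA was measured by sequencing of total RNA in A549 and H1944, which are human lung adenocarcinoma cell lines. All cells of both lines carried a fluorescent reporter that the labels call MGT#1-mVenus, and no group without the reporter was used. Naive cells (3 libraries per line) were compared with cells kept for 11 days in 5 µM GSK126, which blocks EZH2, the enzyme that methylates lysine 27 of histone H3, or in 5 ng/ml TGF-β1, a known inducer of epithelial-mesenchymal transition. Treated cells had been sorted by mVenus fluorescence into a low and a high gate, so that each line has 5 groups. H1944 has 3 libraries in every group (15 in all), and A549 has 13 libraries, with GSK126 high cells in libraries A and B and TGF-β1 low cells in libraries A and C. The labels give naive cells no gate and no day in culture. Treatment, sorting and time in culture therefore cannot be told apart in any comparison with naive cells. Nothing in the labels says that libraries of a group came from separate cultures, so p-values measure the spread between libraries, which may be technical.

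Ligands of these families act on receptor tyrosine kinases. PDGF chains pair into dimers that bind PDGFRA and PDGFRB, VEGFA binds FLT1 and KDR on endothelium, and VEGFC binds FLT4, the receptor of lymphatic growth. HBEGF, AREG, EREG and TGFA are made as membrane precursors, are released by ADAM proteases and bind EGFR, while NRG1 binds ERBB3 and ERBB4. In lung adenocarcinoma, EGFR ligands are known as autocrine factors of the tumour cells, and PDGF and VEGF ligands as signals to fibroblasts and vessels.

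Library totals ran from 2013449 to 9550143 counts in A549 and from 1660148 to 13280592 in H1944. In H1944 the naive library C was the deepest. The epithelial list (EPCAM, KRT7, KRT8, KRT18, KRT19 and CDH1) summed to 4997 to 12797 CPM (counts scaled to a common library total) in A549 and 1495 to 7684 in H1944, with KRT19 at 0 in the H1944 TGF-β1 low group. Markers of lung lineage (NKX2-1, NAPSA, SFTA3 and the surfactant genes SFTPB and SFTPC) reached at most 15.1 CPM in sum. Endothelial markers summed to at most 49.0 CPM and leukocyte markers to at most 27.7. All 7 of a list of fibroblast markers, COL1A1 among them, were detected in every group. They summed to 9.86 to 14.3 CPM in naive H1944, 39.2 to 104 under GSK126 and 3464 to 4541 under TGF-β1, and in A549 to 2.31 to 34.1, 36.3 to 53.6 and 240 to 542. The part of this list in the results below was not tested. Reads on 374 olfactory receptor genes, used here as a measure of background, summed to 305 CPM in the A549 TGF-β1 high library B and 195 in the A549 naive library A, against medians of 76.0 in A549 and 13.7 in H1944. The ligands and gene lists of A549 were therefore also fitted without these 2 libraries, and their counts of calls against naive cells are given both ways. In H1944 the sum reached 73.2 CPM in GSK126 high library C and 62.6 in TGF-β1 low library B. These were left out only singly, as every library was. Background also differed between the A549 GSK126 gates, at 92.8, 76.0 and 79.9 CPM in low and 43.1 and 5.99 in high libraries. In bulk RNA a higher level can come from more cells that transcribe a gene or from more RNA per cell, and these cannot be told apart.

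Under TGF-β1 most of the ligands differed from naive cells in both lines. In A549, 6 of 10 rose (8 had an unadjusted p under 0.05), against 19% of all genes called in either direction, split into 7.67% higher and 11.4% lower. In H1944, 6 rose and 3 fell, against 63.7% of all genes called, that is 32.1% higher and 31.6% lower. The median log2 fold change of the 10 ligands was 1.66 in A549 (0.05 over all genes tested) and 2.20 in H1944 (-0.01 over all genes). Under GSK126, 3 ligands were higher in A549 (6 at an unadjusted p under 0.05), where 6.77% of all genes were called (3.57% higher, 3.2% lower), and 7 were higher and 1 lower in H1944, where 40.2% were called (21.5% higher, 18.7% lower). PDGFB, among these 7, passed the filter in H1944 only through the TGF-β1 groups. The medians under GSK126 were 0.70 and 1.00 on the log2 scale, against -0.16 and 0.00 over all genes. Since the ligands were chosen with earlier results of these data known, these shares and medians only describe them. A gene was called at a Benjamini-Hochberg adjusted p under 0.05 in edgeR's quasi-likelihood test over all genes, and every adjusted p and log2 fold change (± SE) below is from that test. GSK126 and TGF-β1 are compared with the same naive libraries. The spread between libraries was larger in A549 than in H1944 (edgeR's common biological coefficient of variation 0.36 and 0.10). Numbers of calls are therefore not comparable between the lines. Without the 2 A549 libraries of high background, 5 ligands were called under GSK126 and 8 under TGF-β1 in A549, where 15.6% and 32% of all genes were then called. The 5 were VEGFA, NRG1, TGFA, EREG and HBEGF, all higher, and the 8 were the 6 from all libraries with TGFA (higher) and AREG (lower).

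**Figure D1:**
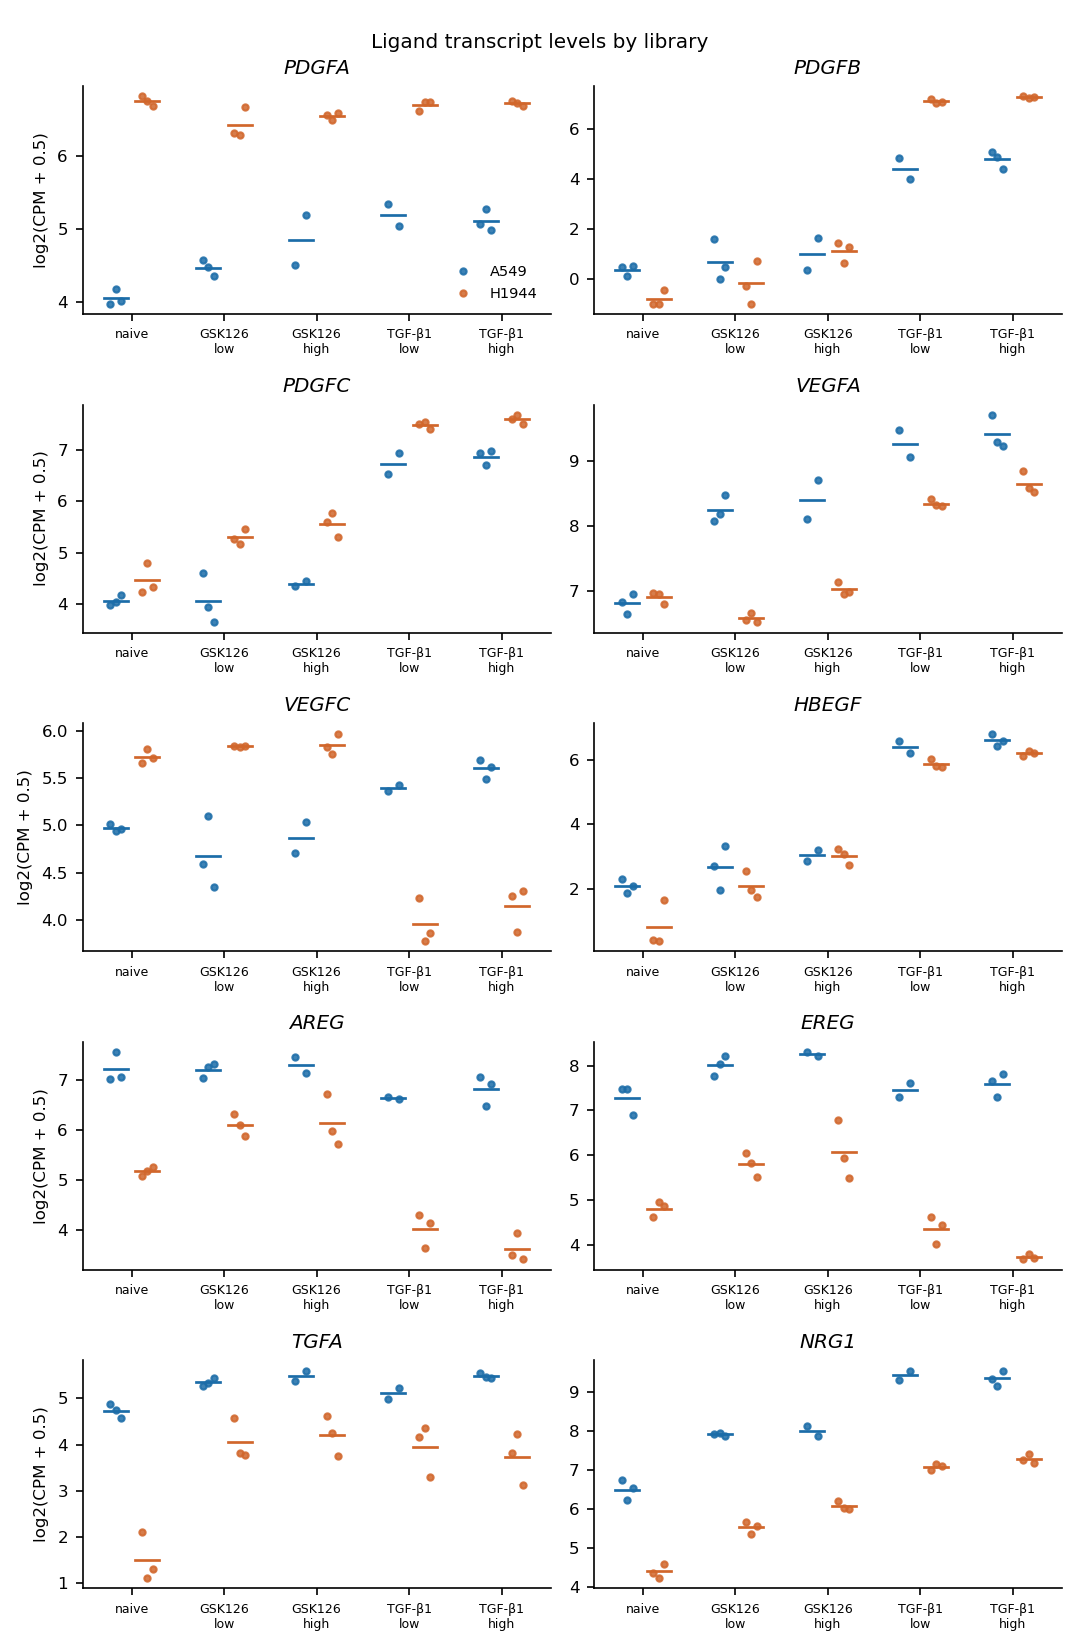
Levels of the 10 ligands as log2(CPM + 0.5) in each group of A549 (blue) and H1944 (orange), where points are libraries and lines are group means of the plotted values. PDGFB and HBEGF were highest in the TGF-β1 groups of both lines, whereas VEGFC and AREG were lowest there in H1944.

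Levels per length were compared within naive cells, as mean CPM per kilobase of merged exons ± SD over 3 libraries. Merged exons span all annotated transcripts of a gene, from 1648 bases in AREG to 14431 in VEGFA, so the order depends on these lengths. In naive A549 the EGFR ligands AREG (91.3 ± 19.97) and EREG (27.7 ± 5.95) came first. VEGFC (12.8 ± 0.32), NRG1 (8.01 ± 1.39) and VEGFA (7.81 ± 0.80) followed, with NRG1 and VEGFA closer than their spread. TGFA (5.25), PDGFA (3.88), PDGFC (2.91), HBEGF (1.27) and PDGFB (0.21) were lower. In naive H1944 the order was another one, with PDGFA (26.0 ± 1.26), AREG (21.8 ± 1.38) and VEGFC (21.7 ± 1.11) at the top, the last pair within their spread. VEGFA (8.35), EREG (4.83), PDGFC (3.91), NRG1 (1.83), TGFA (0.50), HBEGF (0.48) and PDGFB (0.02) were lower, and TGFA and HBEGF did not differ beyond their spread. Under TGF-β1, PDGFB reached 36.2 ± 1.84 in H1944 low cells and 40.7 ± 0.91 in high cells on this scale, the first place among the 10 ligands in both gates. By plain CPM PDGFB was not first there, at 136 in low and 153 in high cells. VEGFA averaged 325 and 402 CPM in these gates and PDGFC 179 and 193. In A549 under TGF-β1 the first 3 places by group mean were held by AREG, NRG1 and VEGFA, at 60.5, 60.6 and 43.1 in low cells and 69.6, 57.6 and 47.6 in high cells.

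PDGFB encodes the PDGF B chain, the classical ligand for PDGFRB on mesenchymal cells (chromosome 22, 39223359 to 39244751, minus strand, GRCh38). Under TGF-β1 it had the highest fold change of the 10 ligands in H1944, whereas in A549 PDGFB (4.76 ± 0.45) and HBEGF (4.42 ± 0.29) lay within their standard errors of each other. In A549, PDGFB stood at 0.87, 0.58 and 0.91 CPM in naive libraries A, B and C. It reached 27.9 and 15.1 CPM in TGF-β1 low libraries A and C and 33.0, 28.6 and 20.6 in high libraries A, B and C. Every TGF-β1 library lay above every naive library (log2 fold change 4.76 ± 0.45, adjusted p = 2.5e-07). In naive H1944, PDGFB had 0, 0 and 3 counts, the last in the deepest library, where it was 0.23 CPM, and a count of 0 allows up to 1.26 and 1.25 CPM in libraries A and B. It stood at 144, 131 and 134 CPM in TGF-β1 low libraries A, B and C and at 156, 149 and 153 in the high libraries. The pooled CPM was 873 times that of naive cells, with a 95% exact binomial interval of 298 to 4237 that covers counting error only (2123 counts against 3, log2 fold change 9.56 ± 0.27, adjusted p = 1.6e-25). PDGFB passed the filter on low counts in H1944 only through these TGF-β1 libraries, so that p-value is only descriptive. Without naive library C the fitted log2 fold change of PDGFB was 11.78, since the other naive libraries hold no count. Under GSK126 PDGFB stayed low, at 0.32, 0 and 1.15 CPM in H1944 low cells and 2.20, 1.04 and 1.93 in high cells. The pooled ratio there was 6.57 (1.97 to 34.3), and PDGFB was called higher (2.15 ± 0.71, adjusted p = 0.015). This call was lost without GSK126 low library C (1.38, adjusted p = 0.34), with the low gate alone (1.22, adjusted p = 0.32) and in the fit of all 28 libraries. When only the naive and GSK126 groups were fitted, PDGFB was too low to be tested. The value moved to 4.38 without naive library C. In A549 under GSK126, PDGFB was at 0.50 to 2.57 CPM in 5 libraries, which overlapped naive cells (1.00 ± 0.53, adjusted p = 0.34).

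PDGFC, a PDGF chain that needs proteolytic cleavage before it can bind PDGFRA (chromosome 4, 156760454 to 156971394, minus strand), followed the same direction with a smaller fold. In naive A549, PDGFC was at 15.4, 15.9 and 17.5 CPM, and under TGF-β1 at 92.2 and 122 in low cells and 122, 103 and 125 in high cells (2.62 ± 0.26, adjusted p = 5.2e-07). GSK126 libraries of A549 spanned 12.1 to 24.0 CPM and overlapped naive cells (0.15 ± 0.25, adjusted p = 0.81). In naive H1944, PDGFC was at 18.5, 27.4 and 19.7 CPM. GSK126 cells lay above them, at 38.3, 35.4 and 43.4 in the low gate and 47.9, 54.6 and 39.0 in the high gate (0.91 ± 0.13, adjusted p = 6.3e-07). TGF-β1 cells lay higher again, at 182, 186 and 170 in the low gate and 193, 204 and 180 in the high gate (3.20 ± 0.12, adjusted p = 2.4e-21).

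PDGFA, the A chain that binds PDGFRA (chromosome 7, 497258 to 520296, minus strand), did not follow PDGFB and PDGFC in H1944. Naive H1944 libraries had 113, 108 and 103 CPM, and TGF-β1 libraries 98.1, 107 and 107 in the low gate and 108, 106 and 103 in the high gate. These ranges overlapped (0.03 ± 0.09, adjusted p = 0.77). PDGFA was below that naive range under GSK126 in H1944, at 79.7, 77.9 and 102 CPM in low cells and 94.9, 89.8 and 96.8 in high cells. It fell by 0.37 ± 0.09 on the log2 scale (adjusted p = 0.0013). The closest libraries were at 101.8 CPM (GSK126 low C) and 102.6 CPM (naive C). In naive A549, PDGFA was at 15.2, 17.5 and 15.6 CPM, below every H1944 library. It rose under TGF-β1 to 40.2 and 32.6 CPM in low cells and 33.0, 38.4 and 31.1 in high cells (0.95 ± 0.21, adjusted p = 0.0033). The GSK126 libraries of A549, at 19.9 to 36.2 CPM, also lay above the naive ones, but PDGFA did not pass the test (0.58 ± 0.22, adjusted p = 0.15).

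VEGFA, the main angiogenic ligand (chromosome 6, 43770184 to 43786487, plus strand), rose under both treatments in A549. Naive A549 libraries had 114, 101 and 123 CPM. GSK126 libraries had 269, 292 and 355 CPM in the low gate and 275 and 417 in the high gate (1.46 ± 0.25, adjusted p = 0.00091). TGF-β1 libraries had 708 and 535 in the low gate and 835, 628 and 599 in the high gate (2.38 ± 0.26, adjusted p = 1.7e-06). The 3 sets of A549 libraries did not overlap. In H1944 VEGFA rose under TGF-β1, from 125, 124 and 112 CPM in naive cells to 341, 319 and 316 in low cells and 458, 383 and 366 in high cells (1.66 ± 0.09, adjusted p = 3.5e-17). GSK126 low cells of H1944 had 93.8, 102 and 91.8 CPM and high cells 141, 123 and 127, on either side of the naive level (-0.21 ± 0.09, adjusted p = 0.061). Taken alone, the low gate was below naive cells (-0.44, called), while the high gate gave 0.02.

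VEGFC, the lymphangiogenic ligand (chromosome 4, 176683538 to 176792727, minus strand), fell under TGF-β1 in H1944. Naive H1944 had 50.02, 55.3 and 51.9 CPM, whereas TGF-β1 cells had 18.3, 13.3 and 14.1 in the low gate and 18.6, 14.2 and 19.2 in the high gate (fell by 1.60 ± 0.12 on the log2 scale, adjusted p = 3.0e-13). Under GSK126 it was at 53.6 to 62.1 CPM over 6 libraries (0.00 ± 0.11, adjusted p = 0.99). In A549, VEGFC stood at 31.7, 30.2 and 30.6 CPM in naive cells, and at 40.5 and 42.4 in TGF-β1 low and 51.3, 44.6 and 48.7 in TGF-β1 high cells. The TGF-β1 libraries lay above the naive ones, yet VEGFC did not pass the test there (0.37 ± 0.21, adjusted p = 0.28). GSK126 libraries of A549 spanned 19.9 to 33.8 CPM (-0.25 ± 0.21, adjusted p = 0.60).

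Of the 4 EGFR ligands, HBEGF rose under TGF-β1 in both lines, TGFA rose in H1944 and was not called in A549, and the neighbouring pair AREG and EREG fell in H1944. EREG and AREG lie on the plus strand of chromosome 4 (74365143 to 74388751 and 74445134 to 74455009), with 56382 bases between them, and HBEGF lies on the minus strand of chromosome 5 (140332843 to 140346631). The RefSeq promoter table (GRCh38.p14) holds 6 of the 10 ligands. The 250 bases before the annotated start are printed for these 3 genes because their levels moved apart under TGF-β1, and no signal at promoters was measured in these libraries. They are given 5′ to 3′ along the gene, with chr5:140346604-140346853 for HBEGF, chr4:74444886-74445135 for AREG and chr4:74364895-74365144 for EREG. Capitals mark matches on either strand to TGANTCA (AP-1), GGAATG (TEAD), CAGAC (SMAD), ACGTG (HIF core), CACCTG (the E-box of SNAI and ZEB) or TGACGTC (CRE core).
HBEGF: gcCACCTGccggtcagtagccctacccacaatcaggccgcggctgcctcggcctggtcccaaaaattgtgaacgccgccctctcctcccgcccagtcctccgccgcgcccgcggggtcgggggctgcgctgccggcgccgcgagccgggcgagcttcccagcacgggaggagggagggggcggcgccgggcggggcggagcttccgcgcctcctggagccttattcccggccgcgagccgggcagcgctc
AREG: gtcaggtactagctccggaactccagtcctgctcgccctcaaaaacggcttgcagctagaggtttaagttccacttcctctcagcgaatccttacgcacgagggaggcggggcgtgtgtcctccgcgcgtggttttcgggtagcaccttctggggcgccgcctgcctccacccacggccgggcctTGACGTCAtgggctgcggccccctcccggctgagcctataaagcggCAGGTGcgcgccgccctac
EREG: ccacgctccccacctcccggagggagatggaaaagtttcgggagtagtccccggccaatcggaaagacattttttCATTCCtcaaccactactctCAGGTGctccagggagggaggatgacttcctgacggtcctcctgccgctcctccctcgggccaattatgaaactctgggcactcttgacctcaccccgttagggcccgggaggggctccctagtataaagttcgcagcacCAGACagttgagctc
The E-box letters were in all 3 windows, as they were in 17.5% of 34943 promoter windows of the same length. The first base of the match was at -248 in HBEGF, -19 in AREG and -155 in EREG, counted from the start site. AREG had the CRE core, found in 3.1% of windows, at -65, where TGACGTCA reads the same on both strands and so matched on each; this motif was added after the sequences had been seen. EREG had a TEAD match at -175 (11.9% of windows) and a SMAD match at -15 (38% of windows). No letters of AP-1 (6.59% of windows) or the HIF core (18.5%) were in these 3 windows. The SP1 letters GGGCGG, left in lower case, were in 42.5% of windows and occurred 5 times in HBEGF, 1 time in AREG and 0 times in EREG. A match is a description of the letters and not of binding.

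HBEGF, a heparin-binding EGFR ligand, was scarce in naive cells. Naive A549 had 4.49, 3.18 and 3.81 CPM, and TGF-β1 cells had 94.3 and 72.5 in the low gate and 111, 85.1 and 95.3 in the high gate (4.42 ± 0.29, adjusted p = 3.1e-09). GSK126 cells of A549 had 6.06, 3.48 and 9.50 CPM in the low gate and 6.87 and 8.84 in the high gate, and HBEGF did not pass the test (0.85 ± 0.30, adjusted p = 0.12). In naive H1944, HBEGF had 0.84, 0.83 and 2.71 CPM from 2, 2 and 36 counts, so its level rests mostly on the deepest library. TGF-β1 cells of H1944 had 63.8, 54.8 and 54.1 CPM in the low gate and 69.3, 75.8 and 72.7 in the high gate. The log2 fold change was 4.98 ± 0.22 (adjusted p = 5.6e-20), and the pooled ratio was 29.5 with a counting interval of 21.5 to 41.6. Without naive library C the log2 fold change was 6.27. Under GSK126 H1944 had 5.42, 3.46 and 2.88 CPM in low cells and 9.01, 7.95 and 6.26 in high cells, all above the naive libraries (1.26 ± 0.28, adjusted p = 0.00053, and 2.56 without naive library C). With the low gate alone HBEGF was not called (0.73, adjusted p = 0.11).

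AREG, the EGFR ligand with the highest level per length in naive A549, rose under GSK126 and fell under TGF-β1 in H1944. Naive H1944 had 33.6, 35.8 and 38.2 CPM of AREG. GSK126 cells had 80.1, 68.3 and 59.0 in the low gate and 105, 63.2 and 52.5 in the high gate (0.88 ± 0.16, adjusted p = 2.7e-05). TGF-β1 cells had 19.2, 12.05 and 17.2 in the low gate and 10.9, 15.0 and 10.2 in the high gate (fell by 1.29 ± 0.19 on the log2 scale, adjusted p = 4.7e-07). The 3 sets of H1944 libraries did not overlap. In A549, naive libraries had 129, 188 and 134 CPM, GSK126 libraries 132 to 177 and TGF-β1 libraries 88.9 to 134. AREG passed the test in neither A549 comparison (GSK126 -0.08 ± 0.25, adjusted p = 0.90; TGF-β1 -0.68 ± 0.25, adjusted p = 0.064). Without the 2 libraries of high background the TGF-β1 difference of AREG was -0.62 with an adjusted p of 0.0065.

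EREG, which binds EGFR and ERBB4, moved much as AREG did in H1944. Naive H1944 had 24.0, 30.4 and 28.5 CPM, and GSK126 cells had 65.4, 56.4 and 44.9 in the low gate and 110, 60.5 and 44.3 in the high gate (1.09 ± 0.19, adjusted p = 1.2e-05). TGF-β1 cells had 24.1, 15.7 and 21.2 in the low gate and 12.2, 13.3 and 12.6 in the high gate (fell by 0.70 ± 0.22 on the log2 scale, adjusted p = 0.0055). TGF-β1 low library A overlapped the lowest naive library, and with the low gate alone EREG was not called. In naive A549, EREG was at 178, 178 and 119 CPM, and all 5 GSK126 libraries lay above, at 219, 262 and 298 in low and 315 and 296 in high cells. It narrowly missed the threshold (0.76 ± 0.24, adjusted p = 0.064) and passed it without the 2 libraries of high background (0.78, adjusted p = 0.0048). TGF-β1 libraries of A549, at 156 to 226 CPM, overlapped naive cells (0.08 ± 0.23, adjusted p = 0.92).

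TGFA, the ligand closest to EGF in its binding of EGFR (chromosome 2, 70447280 to 70554193, minus strand), rose under both treatments in H1944. It stood at 3.78, 1.66 and 1.96 CPM in naive H1944. GSK126 cells had 23.3, 13.6 and 13.2 CPM in the low gate and 24.2, 18.7 and 12.998 in the high gate (2.88 ± 0.33, adjusted p = 7.3e-09). TGF-β1 cells had 17.4, 19.9 and 9.40 in the low gate and 13.6, 18.3 and 8.25 in the high gate (2.74 ± 0.34, adjusted p = 1.5e-08). Both treated sets lay above the naive libraries and overlapped each other. In naive A549, TGFA was at 28.7, 26.2 and 23.3 CPM, a range that only GSK126 high library A reached among treated H1944 libraries. GSK126 libraries of A549 had 38.0, 39.7 and 42.7 CPM in low and 41.2 and 47.9 in high cells (0.64 ± 0.19, adjusted p = 0.046). That call was lost when any 1 of the 5 GSK126 libraries or naive library C was left out (adjusted p = 0.11 to 0.53). TGF-β1 libraries of A549, at 31.4 to 46.6 CPM, lay above naive cells without passing the test (0.42 ± 0.18, adjusted p = 0.13).

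NRG1, the ERBB3 and ERBB4 ligand (chromosome 8), rose under both treatments in both lines. In naive A549 it was at 106, 74.5 and 91.8 CPM. GSK126 cells had 242, 247 and 234 in the low gate and 276 and 235 in the high gate (1.40 ± 0.21, adjusted p = 0.00031), and TGF-β1 cells had 630 and 744 in the low gate and 647, 571 and 741 in the high gate (2.75 ± 0.23, adjusted p = 4.6e-08). In naive H1944, NRG1 was at 20.2, 18.3 and 23.8 CPM. GSK126 cells had 50.4, 40.3 and 47.2 in the low gate and 73.6, 65.0 and 63.1 in the high gate (1.24 ± 0.12, adjusted p = 1.9e-10). TGF-β1 cells had 127, 142 and 137 in the low gate and 152, 168 and 145 in the high gate (2.80 ± 0.12, adjusted p = 1.6e-20). In each line the naive, GSK126 and TGF-β1 libraries formed 3 sets in that order with no overlap. The 10 intronic, antisense or other genes with a count here that overlap the ligands had at most 102 counts over all 28 libraries (NRG1-IT1). AL031590.1, antisense to PDGFB, was not analysed here. The strand setting of the counting is not given in the sources used here, so reads of PDGFB and of that gene cannot be told apart.

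**Figure D2:**
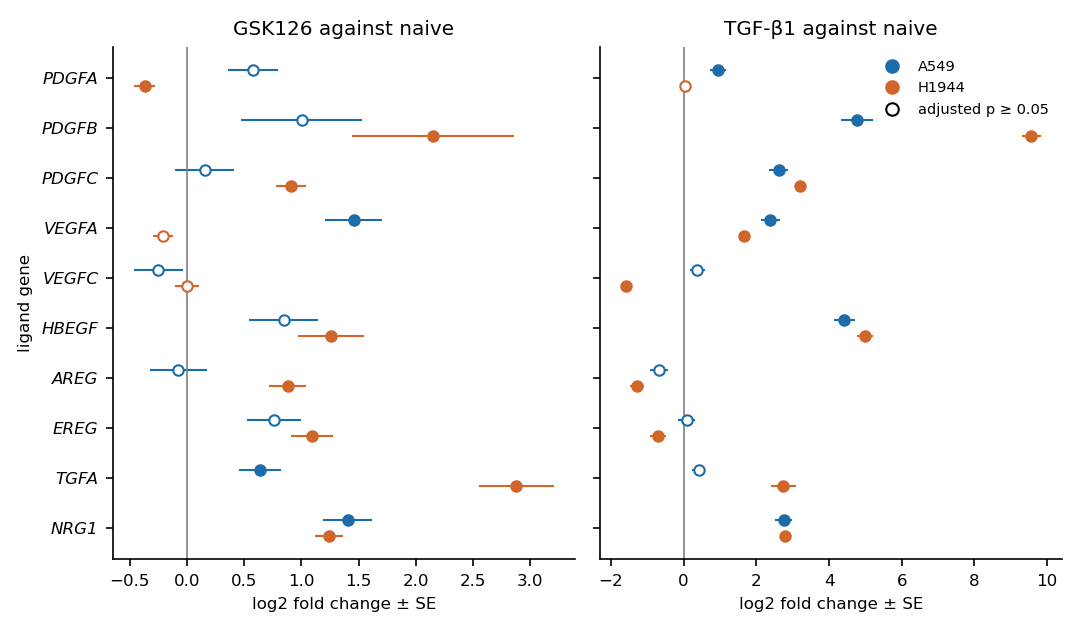
Log2 fold change (± SE) of each ligand against naive cells under GSK126 and under TGF-β1 in A549 and H1944, with open symbols where the adjusted p was 0.05 or more. PDGFB (4.76 and 9.56) and HBEGF (4.42 and 4.98) stand furthest to the right under TGF-β1, and AREG and VEGFC fall in H1944.

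Between the reporter gates, ligands were called only in H1944 under GSK126. The median log2 difference of the 10 ligands (high minus low) under GSK126 was nevertheless 0.37 in both lines, against -0.05 over all genes in A549 and 0.03 in H1944. The larger spread between A549 libraries makes calls harder there, and whether the gate differences differ between the lines was not tested. There 3 of 10 were higher in high than in low cells (6 at an unadjusted p under 0.05), against 6.93% of all genes called (3.62% higher, 3.31% lower). HBEGF was at 5.42, 3.46 and 2.88 CPM in low cells and 9.01, 7.95 and 6.26 in high cells (1.06 ± 0.30, adjusted p = 0.026). NRG1 was at 40.3 to 50.4 CPM in low and 63.1 to 73.6 in high cells (0.57 ± 0.12, adjusted p = 0.0034), and VEGFA at 91.8 to 102 in low and 123 to 141 in high cells (0.46 ± 0.11, adjusted p = 0.0061). The gates did not overlap for any of these 3 genes, but the share of all genes with gates apart was not counted. All 3 calls were lost without GSK126 high library A (adjusted p = 0.052 to 0.17). HBEGF and NRG1 were lost without GSK126 low library B (adjusted p of 0.15 and 0.072), and HBEGF also without low library C (adjusted p = 0.11). AREG and EREG overlapped between the gates, with high library A (105 and 110 CPM) above all other H1944 libraries. PDGFB lay above all low libraries in 2 of 3 high libraries and did not pass the test (1.85 ± 0.63, adjusted p = 0.071).

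**Figure D3:**
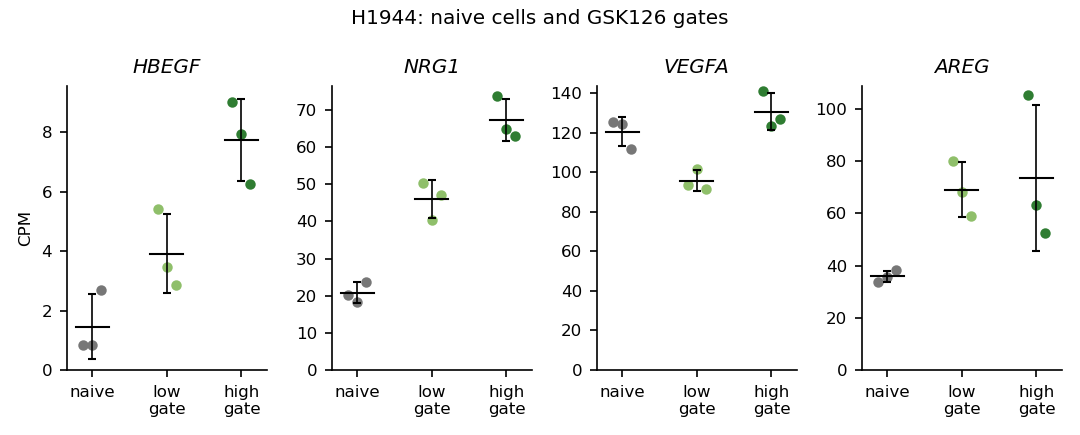
CPM of HBEGF, NRG1, VEGFA and AREG in H1944 naive cells and in the GSK126 low and high gates, where points are libraries and lines with error bars give the mean ± SD of 3 libraries. HBEGF, NRG1 and VEGFA do not overlap between the low and high gates, while AREG does (59.0 to 80.1 against 52.5 to 105 CPM).

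In the other gate comparisons 0 of 10 ligands were called by edgeR's quasi-likelihood test. In A549 under GSK126 the 10 log2 differences ran from 0.27 to 0.62, 1 ligand (PDGFA) had an unadjusted p under 0.05, and 0% of genes were called in all, with 987 of 19842 at an unadjusted p under 0.05. In A549 under TGF-β1 the differences ran from -0.11 to 0.38, 0 ligands had an unadjusted p under 0.05, and 0% of genes were called (198 at an unadjusted p under 0.05). In H1944 under TGF-β1 they ran from -0.70 (EREG) to 0.34 (HBEGF), with 3 ligands at an unadjusted p under 0.05 and 0.0587% of genes called (0.0147% higher, 0.044% lower, 702 at an unadjusted p under 0.05). DESeq2 and limma-voom also called 0 ligands in each of these 3 comparisons. EREG was at 24.1, 15.7 and 21.2 CPM in TGF-β1 low cells of H1944 and at 12.2, 13.3 and 12.6 in high cells, which did not overlap (adjusted p = 0.92). PDGFB (131 to 144 CPM in low and 149 to 156 in high cells) and VEGFA (316 to 341 and 366 to 458) did not overlap there either. Nor did HBEGF (54.1 to 63.8 and 69.3 to 75.8) and NRG1 (127 to 142 and 145 to 168). In A549 under TGF-β1, VEGFC and TGFA were higher in high cells with no overlap. The share of all genes with gates apart was not counted.

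TGF-β1 cells were also set against GSK126 cells, both sorted, which leaves naive cells out. In H1944, 6 ligands were higher and 3 lower under TGF-β1, against 63.8% of all genes called (31.6% higher, 32.1% lower). PDGFB (7.42 ± 0.17), HBEGF (3.72 ± 0.15), PDGFC (2.29 ± 0.09), VEGFA (1.87 ± 0.07), NRG1 (1.56 ± 0.08) and PDGFA (0.40 ± 0.08) were higher. AREG (-2.16 ± 0.16), EREG (-1.79 ± 0.17) and VEGFC (-1.60 ± 0.11) were lower, with no overlap of the libraries for any of these 3. TGFA did not pass the test (-0.14 ± 0.21, adjusted p = 0.57). PDGFB moved to 8.16 without GSK126 low library C. In A549, 6 were higher and 1 lower, against 19.3% of all genes called (7.93% higher, 11.4% lower). PDGFB (3.76 ± 0.37), HBEGF (3.57 ± 0.24), PDGFC (2.46 ± 0.22) and NRG1 (1.35 ± 0.18) were higher and kept their calls when any 1 library was left out, although PDGFB moved to 4.37 without GSK126 high library B. VEGFA (0.92 ± 0.21) lost its call without GSK126 high library A (adjusted p = 0.083). VEGFC (0.62 ± 0.19) lost its call without any 1 of GSK126 libraries low A, low C, high A and high B or TGF-β1 high A, and EREG (-0.68 ± 0.20) without any 1 of GSK126 low B, low C, high A and high B or TGF-β1 low A (adjusted p = 0.050 to 0.19 over both genes). Without the 2 libraries of high background all 7 were called in the same direction, and PDGFA (0.46, adjusted p = 0.039) was called higher and AREG (-0.41, adjusted p = 0.026) lower as well.

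The lines differed before treatment. In one fit of all 28 libraries, 2 ligands were higher and 4 lower in naive H1944 than in naive A549, against 46.8% of all genes called (23.9% higher, 22.9% lower). PDGFA (2.77 ± 0.17) and VEGFC (0.80 ± 0.17) were higher in H1944, whereas TGFA (-3.49 ± 0.34), EREG (-2.48 ± 0.27), AREG (-2.05 ± 0.25) and NRG1 (-2.04 ± 0.17) were lower. With edgeR's RLE size factors in place of TMM the median of all genes in this comparison moved by -0.15 on the log2 scale, and PDGFB and HBEGF were called lower as well. Both were also called lower with TMM under either other filter on low counts, and with DESeq2. The response to TGF-β1 differed between the lines for 5 of 10 ligands (20% of all genes, 10.5% higher in H1944 and 9.48% lower), by the interaction term of the same fit. PDGFB (4.74 ± 0.87) and TGFA (2.17 ± 0.40) had the higher response in H1944, and PDGFA (-1.08 ± 0.21), VEGFA (-0.88 ± 0.24) and VEGFC (-2.12 ± 0.22) the lower. For PDGFB the difference rests on 3 naive counts in H1944 and moved to 7.38 without naive library C. The response to GSK126 differed for 3 of 10 (9.91% of all genes, 6.18% higher and 3.73% lower). TGFA (2.22 ± 0.40) had the higher response in H1944, and VEGFA (-1.71 ± 0.24) and PDGFA (-0.99 ± 0.21) the lower. For NRG1 the difference of the TGF-β1 responses was -0.06 ± 0.20 (adjusted p = 0.89) and that of the GSK126 responses -0.15 ± 0.20 (adjusted p = 0.74).

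The receptors of these ligands were measured in the same libraries. EGFR, the receptor of HBEGF, AREG, EREG and TGFA, rose in all 4 comparisons with naive cells. Every receptor called in A549 was called in the same direction without the 2 libraries of high background, and NRP1 (0.67 under GSK126), ERBB2 (-0.71 under GSK126) and FLT4 (-1.77 under TGF-β1) were called as well. EGFR went from 192 ± 15 CPM (SD, n = 3) in naive A549 to 437 ± 35 (n = 5) under GSK126 and 591 ± 71 (n = 5) under TGF-β1, with edgeR log2 fold changes of 1.14 ± 0.22 and 1.46 ± 0.22. In H1944, EGFR went from 59.8 ± 8.4 (n = 3) to 87.2 ± 19 (n = 6) and 397 ± 30 (n = 6), with 0.46 ± 0.12 and 2.82 ± 0.13. ERBB3, a receptor of NRG1, fell in all 4. It dropped from 52.2 ± 3.4 CPM to 16.9 ± 9.6 and 9.70 ± 8.7 in A549 (log2 fold changes -1.92 ± 0.42 and -2.69 ± 0.41) and from 352 ± 4.6 to 138 ± 23 and 6.18 ± 2.2 in H1944 (-1.48 ± 0.10 and -5.79 ± 0.14). The A549 TGF-β1 high library B, of high background, had 24.2 CPM of ERBB3 against 2.51 and 3.33 in the other two of its group. ERBB4, the second NRG1 receptor, went from 12.2 ± 1.2 CPM in naive H1944 to 7.54 ± 1.8 and 2.94 ± 1.5 (-0.84 ± 0.25 and -2.02 ± 0.30) and was at 2.52 to 4.60 CPM on average in A549, with no call. ERBB2, the shared partner that binds no ligand, fell in 3 of the 4 (-0.76 ± 0.21 in A549 under TGF-β1, -0.42 ± 0.11 and -0.51 ± 0.11 in H1944) and was -0.59 in A549 under GSK126 without a call.

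**Figure D4:**
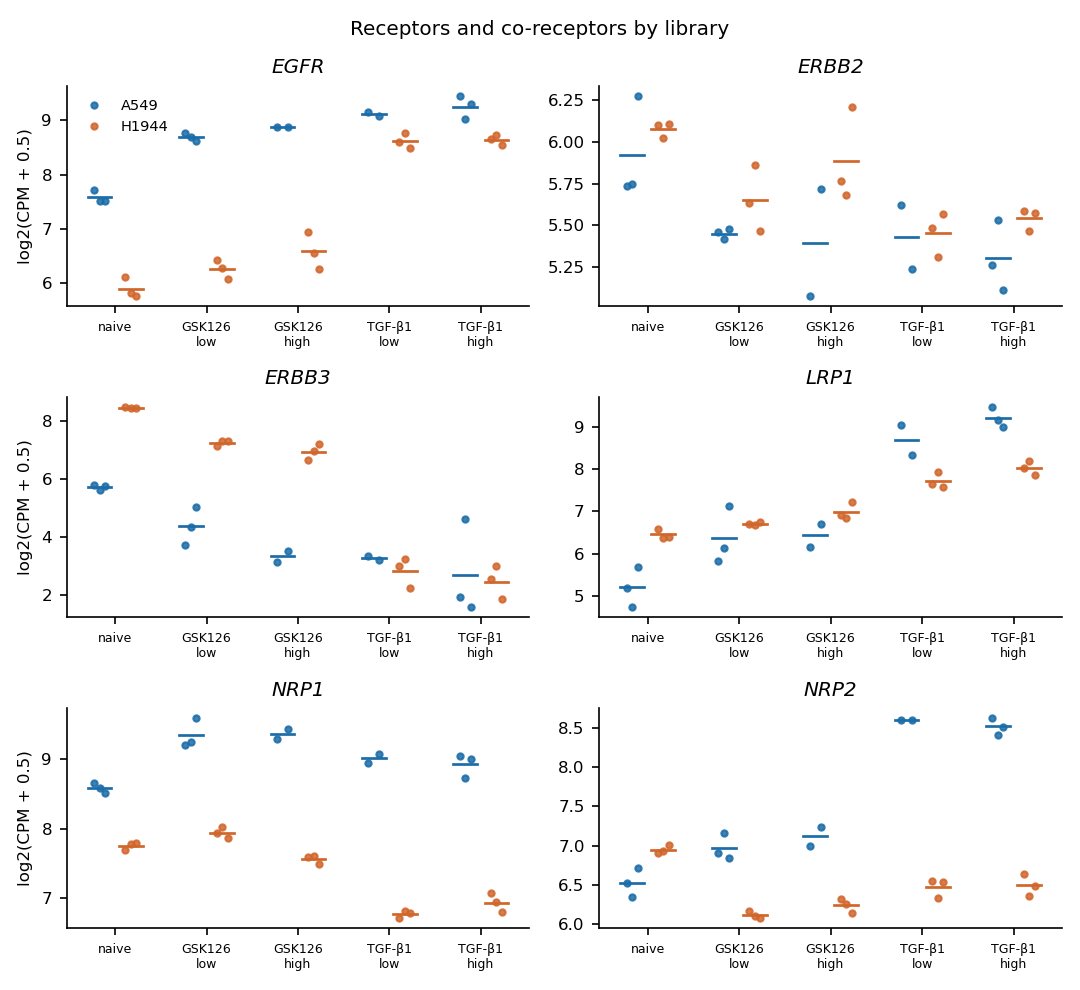
Levels, as log2(CPM + 0.5), of the receptors EGFR, ERBB2 and ERBB3, the PDGF co-receptor LRP1 and the VEGF co-receptors NRP1 and NRP2 in each group, where points are libraries and lines are group means of the plotted values. EGFR rises and ERBB3 falls with treatment in both lines, most of all in H1944 under TGF-β1 (59.8 to 397 CPM and 352 to 6.18 CPM on average).

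PDGF and VEGF receptors were scarce. PDGFRB, the receptor of PDGFB, had 1 count in the 3 naive H1944 libraries and 127 counts in the 6 TGF-β1 libraries, where it stood at 5.09 to 12.5 CPM (log2 fold change 6.57 ± 0.85, adjusted p = 3.8e-08). The pooled ratio was 157 with a counting interval of 27.6 to 6237. With 1 naive count, PDGFRB could not pass the filter on low counts through naive cells. Its p-value is therefore only descriptive. PDGFRB was called in neither A549 comparison, where it averaged 1.14 to 3.18 CPM and was highest, at 8.65 CPM, in the library of highest background. Without the 2 libraries of high background its TGF-β1 log2 fold change in A549 was 1.10 ± 0.85, too uncertain to show a change or its absence. PDGFRA, FLT1 and KDR averaged at most 4.42 CPM by line and treatment and were called in neither A549 comparison with naive cells, and all 3 were too low to be tested within H1944. FLT4, the VEGFC receptor, went from 2.45 ± 0.86 CPM in naive H1944 to 7.03 ± 2.0 under GSK126 (1.38 ± 0.40) and 1.11 ± 1.6 under TGF-β1 (-2.05 ± 0.66). LRP1, a PDGF co-receptor, rose in all 4 comparisons (1.15, 3.59, 0.29 and 1.51 for A549 GSK126, A549 TGF-β1, H1944 GSK126 and H1944 TGF-β1). NRP1, a co-receptor of VEGFA, fell in H1944 under TGF-β1 (214 ± 7.8 to 115 ± 11 CPM, -0.84 ± 0.08) and was lower in the high than in the low GSK126 gate (-0.38 ± 0.09), the gates in which VEGFA differed the other way. NRP2, a co-receptor of VEGFC, rose in A549 under TGF-β1 (92.1 ± 12 to 376 ± 23 CPM, 1.87 ± 0.22) and fell in H1944 under both treatments (-0.89 ± 0.09 and -0.40 ± 0.09).

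Of the 10 other ligands of the families, 9 were tested in A549 and 6 in H1944. In A549, 1 fell under GSK126 (6.77% of all genes were called) and 2 under TGF-β1 (19%), and their median log2 fold changes were -0.45 and -0.13. In H1944, 2 rose and 2 fell under GSK126 (40.2% of all genes called), and 3 fell under TGF-β1 (63.7%), with medians of -0.08 and -1.04. PDGFD, a PDGFRB ligand that like PDGFC needs cleavage, fell in all 4 comparisons, from 17.8 to 8.20 and 6.17 CPM in A549 (-1.19 ± 0.25 and -1.64 ± 0.25) and from 31.0 to 17.1 and 10.0 in H1944 (-1.01 ± 0.15 and -1.61 ± 0.17). Its direction under TGF-β1 was opposite to that of PDGFB and PDGFC. EGF fell in H1944 (82.8 to 59.2 and 22.2 CPM, -0.63 ± 0.12 and -1.87 ± 0.13), and the ERBB4 ligand NRG4 fell under TGF-β1 in both lines (-1.42 ± 0.47 in A549, -1.45 ± 0.15 in H1944). BTC (0.81 ± 0.28) and VEGFB (0.39 ± 0.10) rose in H1944 under GSK126. PGF, VEGFD, NRG2 and NRG3 averaged at most 4.74 CPM. VEGFD was called against naive cells in neither line, and the other 3 were not called in A549 and were too low to be tested in H1944. EPGN was too low to be tested in both lines. Without the 2 libraries of high background 8 of these ligands were tested in A549, the same 3 calls were made and BTC was called higher under TGF-β1 (0.69).

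Proteases that release or process the ligands were listed apart (20 genes). In A549, where 19 were tested, 7 were higher under GSK126, and 7 were higher and 3 lower under TGF-β1. The shares of all genes called were 6.77% and 19%, and the list medians were 0.42 and 0.30. Of 17 tested in H1944, 10 rose and 3 fell under GSK126 and 11 rose and 3 fell under TGF-β1, against 40.2% and 63.7% of all genes, with medians of 0.28 and 0.89. Without the 2 libraries of high background, A549 had 8 higher under GSK126 and 9 higher and 4 lower under TGF-β1. ADAM19, a protease that can cleave NRG1, rose in all 4 comparisons, from 3.12 to 52.2 and 738 CPM in A549 (4.07 ± 0.34 and 7.77 ± 0.38) and from 0.66 to 11.6 and 800 in H1944 (3.42 ± 0.24 and 9.76 ± 0.17). ADAM17, the main sheddase of AREG, EREG, HBEGF and TGFA, averaged 88.4 to 120 CPM and was called in none of the 4. CCBE1, which helps to activate VEGFC, rose in A549 (1.77 to 29.1 and 35.0 CPM, 4.01 ± 0.35 and 4.15 ± 0.35) and was too low to be tested in H1944. PLAU, a serine protease, rose in A549 under TGF-β1 (99.9 to 916 CPM, 2.99 ± 0.26), and ADAM12 rose there under GSK126 (37.2 to 101 CPM, 1.38 ± 0.19). The proprotein convertase PCSK5 rose in H1944 (2.99 to 38.4 and 92.5 CPM, 3.73 ± 0.18 and 5.20 ± 0.17), where FURIN, another convertase, fell under GSK126 (144 to 108 CPM, -0.53 ± 0.09) and the protease CTSD fell under TGF-β1 (211 to 39.9 CPM, -2.33 ± 0.11).

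Genes of ERK feedback and output, which respond to receptor tyrosine kinases among other inputs, were tested as a list of 21. A549 had 7 higher and 1 lower under GSK126 and 8 higher and 4 lower under TGF-β1 (list medians 0.39 and 0.06), against 6.77% and 19% of all genes called. In H1944, 11 rose and 1 fell under GSK126 and 12 rose and 6 fell under TGF-β1 (0.41 and 0.95), against 40.2% and 63.7%. Without the 2 libraries of high background, A549 had 8 higher and 1 lower under GSK126 and 9 higher and 4 lower under TGF-β1. PHLDA1 rose in all 4 comparisons, from 113 to 331 and 439 CPM in A549 (1.48 ± 0.24 and 1.82 ± 0.25) and from 16.4 to 61.4 and 257 in H1944 (1.78 ± 0.16 and 4.07 ± 0.15). FOSL1, an AP-1 subunit, rose most under GSK126 in A549 (20.5 to 281 CPM, 3.72 ± 0.27), where the receptor EPHA4 also rose (4.64 to 19.1 CPM, 2.06 ± 0.29). The list held genes that went the other way. The ERK phosphatase DUSP5 fell in H1944 (276 to 132 and 30.6 CPM, -1.18 ± 0.09 and -3.10 ± 0.10), where CCND1, the gene of cyclin D1, rose (103 to 241 and 525 CPM, 1.12 ± 0.11 and 2.43 ± 0.11). ERRFI1, a feedback inhibitor of EGFR, fell in A549 under TGF-β1 (89.6 to 16.3 CPM, -2.66 ± 0.23), where the early gene EGR1 rose (9.90 to 63.2 CPM, 2.58 ± 0.33).

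VEGFA is also known as a target of the hypoxia response, and 18 other genes of that response were listed. Of 17 tested in A549, 1 was higher and 1 lower under GSK126, and 3 were higher and 6 lower under TGF-β1, with medians of -0.01 and -0.38, against 6.77% and 19% of all genes called. In H1944, of 16 tested, 8 rose and 3 fell under GSK126, and 7 rose and 6 fell under TGF-β1, with medians of 0.17 and 0.20, against 40.2% and 63.7% of all genes. The A549 counts without the 2 libraries of high background were 1 higher and 1 lower under GSK126 and 4 higher and 8 lower under TGF-β1. ANGPTL4 rose under TGF-β1 in both lines (2.30 to 57.0 CPM in A549, 4.52 ± 0.48, and 0.33 to 205 CPM in H1944, 9.70 ± 0.26). ADM fell in A549 under TGF-β1 (8.86 to 1.05 CPM, -3.20 ± 0.40), in which VEGFA rose. The glycolytic regulators PFKFB4 (2.27 ± 0.37 in A549 under TGF-β1) and PFKFB3 (1.501 ± 0.11 and 2.56 ± 0.11 in H1944) rose, as did SLC2A1, a glucose transporter (1.02 ± 0.10 in H1944 under GSK126), and KDM3A (1.40 ± 0.11 in H1944 under TGF-β1). NDRG1 rose under GSK126 in A549 (1.69 ± 0.42) and H1944 (1.12 ± 0.11), and EGLN1, an oxygen sensor, fell in A549 (-0.75 ± 0.20).

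Over the 10 groups, likeness of pattern was measured as the root mean square difference of log2(group mean CPM + 0.5), each gene centred within its line, over 14386 protein-coding genes. It is a description over 10 groups that share treatments and libraries. Among the ligands themselves the closest pair was AREG and EREG (0.28), followed by VEGFA and NRG1 (0.42). The genes nearest to PDGFB were ANGPTL4 (0.37) and P4HA3 (0.47). PDGFC lay nearest to IFI44 (0.15) and FOXP1 (0.25), and HBEGF to XYLT1 (0.21) and CORO2B (0.29). For VEGFA they were FURIN (0.17) and BNC2 (0.25), and for NRG1 the nearest was PDLIM7 (0.15). AREG was nearest to MUC1 (0.16) and DTX4 (0.16), EREG to LPIN1 (0.20) and FAM222A (0.22), and TGFA to SLCO3A1 (0.16) and CNRIP1 (0.21). PDGFA and VEGFC spanned less than 2 log2 units within a line and were not matched.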

How the data were processed

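Counts per gene were deposited by the authors as one table of 60487 rows (60483 Ensembl genes and 4 reporter rows), with no normalization. Per the submitters' processing notes, bcl2fastq 2.20.0, STAR 2.6.0c and HTSeq 0.12.3 were used with GRCh38, and per the labels' protocols libraries were made with a SMARTer stranded kit. The strand setting of the counting and the annotation release are not given in the sources used here. Symbols, coordinates and exon lengths were taken from GENCODE 29 (56753 rows matched). CPM is the count divided by the library total and scaled as usual. Each line was fitted in R 4.3.3 with edgeR 4.0.16 (TMM, filterByExpr, quasi-likelihood F test, 5 group means, gates averaged against naive cells). This tested 19842 genes in A549 and 13621 in H1944, and a joint fit of 28 libraries tested 17918. P-values were adjusted over all genes tested. The SE of a log2 fold change is its size divided by the square root of F. The code was tested on simulated counts.

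The members and lists were chosen with earlier results of these data known. Named besides the 10 ligands are receptors and other family ligands with at least 1 CPM in a group, the 3 genes of smallest adjusted p in each process list and comparison, and the 2 of most like pattern for ligands spanning at least 2 log2 units. One such gene is not reported here. ADAM17 was named after its values were seen. Alternatives were DESeq2 1.42.0, limma-voom (limma 3.58.1), other size factors and filters, all libraries in one fit, each gate alone, a block for the library letter, and each library left out. The letters were not taken as pairs, so the gate tests leave out any pairing by letter. Same-letter libraries of the H1944 GSK126 gates correlated at 0.120, 0.142 and 0.0979 in their deviations from group means. The values were 0.0835, 0.101 and -0.0357 for the H1944 TGF-β1 gates. In A549 they were 0.163 and 0.0798 for the GSK126 gates and 0.103 and 0.405 for the TGF-β1 gates. No 2 libraries were identical. Intervals for count ratios are 95% exact binomial intervals and cover counting error only.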

Additional observations from a re-analysis of the deposited data

Results flagged for a closer look

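For 5 ligands the response to TGF-β1 differed between H1944 and A549 by the interaction term of edgeR's quasi-likelihood test over all 28 libraries. The difference of the log2 responses (H1944 minus A549) was 4.74 for PDGFB (SE 0.87, adjusted p = 0.00013), where 3 naive counts in H1944 set the base and all 11 TGF-β1 libraries lay above the naive cells of their line. It was -2.12 for VEGFC (SE 0.22, adjusted p = 1.6e-08), which was lower in 6 of 6 TGF-β1 libraries of H1944 and higher in 5 of 5 of A549 than in naive cells. It was 2.17 for TGFA (SE 0.40, adjusted p = 0.00014), -1.08 for PDGFA (SE 0.21, adjusted p = 0.00023) and -0.88 for VEGFA (SE 0.24, adjusted p = 0.0071).

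The response to GSK126 differed for 3 ligands. The difference was -1.71 for VEGFA (SE 0.24, adjusted p = 6.3e-06), which lay above naive cells in 5 of 5 A549 libraries and overlapped them in H1944. It was 2.22 for TGFA (SE 0.40, adjusted p = 0.0002), whose treated libraries lay above naive cells in both lines. It was -0.99 for PDGFA (SE 0.21, adjusted p = 0.0019), which lay above naive cells in 5 of 5 libraries of A549 and below them in 6 of 6 of H1944.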

How the results depend on the processing

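No value changed direction among called results. Of 2345 values of 130 single-gene results under other settings, 2157 kept their direction and side of the threshold, 44 lost the call, 91 gained one and 53 moved without a call. Of 59 called results, 49 kept their call under every setting run. In A549 the number of ligands called under GSK126 (3 of 10) became 6 with DESeq2, 5 with limma-voom, 5 in the fit of all 28 libraries and 5 without the 2 libraries of high background, and under TGF-β1 (6 of 10) it became 10 with limma-voom. Between the H1944 GSK126 gates (3) it became 0 in the fit of all 28 libraries. For the difference of the GSK126 responses (3) it became 5 with DESeq2, 5 with limma-voom and 5 without those 2 libraries. Leaving out each library in turn gave 2 to 4 ligands for A549 GSK126, 6 to 8 for A549 TGF-β1, 4 to 7 for A549 TGF-β1 against GSK126, 0 to 0 between the gates of A549 under either treatment and of H1944 under TGF-β1, and 0 to 4 between the H1944 GSK126 gates. It gave 7 to 9 for H1944 GSK126, 9 to 9 for H1944 TGF-β1 and for H1944 TGF-β1 against GSK126, 6 to 7 between naive lines, and 3 to 4 and 5 to 7 for the differences of the GSK126 and TGF-β1 responses. With the library letter as a replicate block, the numbers called were 2, 6, 0, 0 and 5 in A549 (GSK126, TGF-β1, the gates under each, and TGF-β1 against GSK126, where 3, 6, 0, 0 and 7 were called without it). They were 9, 9, 3, 0 and 9 in H1944 (8, 9, 3, 0 and 9 without it) and 7, 3 and 6 between lines (6, 3 and 5), for libraries that share only a letter. The refit of the gene lists without the 2 A549 libraries of high background was chosen after seeing the data, and 0 list calls against naive cells were lost in it. Depth limits PDGFB and HBEGF in naive H1944, with 3 and 40 counts in all.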
